A study of Mus musculus with 31 samples.

Results

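Solute carriers are membrane transporters that move amino acids, sugars, ions, metals, vitamins and nucleotides into and out of cells and organelles. Open chromatin near genes of 311 symbols named as solute carriers was followed here in regulatory T cells (Tregs) after interleukin-2 was given to mice. The members are all peaks whose deposited gene list holds a symbol that begins with Slc and a digit or with Slco, without the glucose transporters Slc2a1 and Slc2a3 and the large neutral amino acid transporter pair Slc7a5 and Slc3a2. They are 1374 of 104979 peaks (1.31%), which merge into 1008 regions, and 32 further peaks lay at the 4 genes left out. The rule reads gene symbols alone, so the 311 also take in symbols that are no transporter genes. Among these are the pseudogene Slc25a5-ps and 4 symbols that end in os (antisense or opposite strand genes). A peak is counted under a gene because the deposited annotation lists it there, and for 154 peaks the list also holds a gene that is no member.

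The study measured chromatin accessibility by ATAC-seq, in which the Tn5 transposase cuts open DNA, in Tregs sorted from the spleen of C57BL/6 mice that carry an RFP-FoxP3 reporter. All groups share that reporter and differ in 1 injection: 5 µg of mIL-2 (IL2), 20 µg of mIL-2/CD25 (FP, a fusion of interleukin-2 with a chain of its own receptor), or 100 µL of PBS. At 0.75 h and at 16 h each of these had 3 libraries, PBS and FP had 3 each at 72 h, and at 168 h PBS had 3 and FP had 4, which makes 31 libraries. Times after 0.75 h come from the sample titles and column names alone, because the protocol text of all samples names 0.75 h. No age is given in the labels used here, and they do not say that libraries of a group came from separate mice, so p-values measure the spread between these libraries, which may be partly technical. Each time point also has its own date in the sample identifiers, so a difference between times cannot be told apart from a difference between those dates.

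Interleukin-2 binds a receptor whose high-affinity form, with CD25, marks Tregs, and signals to the nucleus mainly through the transcription factor STAT5, which binds palindromes of the form TTCNNNGAA. The same receptor also feeds the PI3K and mTOR pathways, and T cells that leave rest take up more amino acids, glucose and zinc through solute carriers. Zinc reaches the cytosol through importers of the Slc39 (ZIP) family and leaves it through Slc30 (ZnT) exporters. Mitochondrial carriers of the Slc25 family move metabolites and cofactors across the inner mitochondrial membrane.

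The stretches below are shown because they hold the motif inside the 2 member peaks that passed the test and inside 3 of the peaks with the lowest p that did not pass. They were read from the RefSeq sequence of GRCm38, on the plus strand and 5′ to 3′. Capitals mark each TTCNNNGAA match, a palindrome that reads the same on both strands. The stretch of Slc25a16 lies in the 3′ UTR and was kept to the site and its flanks.
Slc39a10 intron peak, chr1:46864432-46864515: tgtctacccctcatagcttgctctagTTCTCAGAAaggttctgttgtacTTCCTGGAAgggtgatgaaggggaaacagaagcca
Slc25a16 3′ end peak, chr10:62945440-62945468: attatgtttcTTCTCAGAAttctctccag
Slc13a1 intergenic peak, chr6:24237986-24238046: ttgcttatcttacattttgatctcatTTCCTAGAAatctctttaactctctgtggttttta
Slc5a1 intron peak, chr5:33122179-33122305: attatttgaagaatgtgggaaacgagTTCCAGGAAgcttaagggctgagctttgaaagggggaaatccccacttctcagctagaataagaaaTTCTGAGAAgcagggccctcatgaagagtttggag
Slc4a10 intron peak, chr2:62319549-62319609: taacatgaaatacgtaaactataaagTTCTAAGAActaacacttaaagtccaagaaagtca
The Slc39a10 and Slc25a16 peaks share the site TTCTCAGAA, and the second site of Slc39a10, TTCCTGGAA, also fits the stricter form TTCCNGGAA, as does TTCCAGGAA in Slc5a1. A match is a description of the letters and not of binding.

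Of 1317 solute carrier peaks tested for IL2 against PBS at 0.75 h, 2 rose and none fell. They lie at Slc39a10, which encodes the zinc importer ZIP10, and at Slc25a16, which encodes a mitochondrial carrier. Over all 100468 peaks tested in that comparison, 0.488% rose and 0.00896% fell. By 16 h neither peak passed for IL2, and for FP 1 member peak of 1335 rose, again the Slc39a10 peak, where 0.114% of all tested peaks rose. No member passed for FP at 0.75 h, 72 h or 168 h. The sorted cells were measured in bulk, so a peak open in more cells and a peak more often cut in each cell cannot be told apart. All calls use edgeR's quasi-likelihood F test with p adjusted over all tested peaks and a threshold of 0.05.

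The Slc39a10 peak covers chr1:46864004-46864939 (GRCm38), 936 bp in an intron of the gene, which lies on the minus strand. It is 9958 bp upstream of the nearest transcription start of a protein-coding transcript of Slc39a10. Levels are given as CPM, read counts divided by the library's total and its TMM factor. The PBS libraries at 0.75 h had 23.3, 20.9 and 25.2 CPM, and those of IL2 had 65.7, 45.1 and 64.4. The FP libraries at 0.75 h had 45.3, 35.4 and 48.6 CPM. Every IL2 and every FP library thus lay above every PBS library, and the FP and IL2 ranges overlapped. Of all tested peaks, 6.37% had every IL2 library above PBS and 4.81% every FP library.

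IL2 raised the Slc39a10 intron peak at 0.75 h by 1.33 ± 0.20 on the log2 scale (SE, n = 3 against 3; edgeR adjusted p = 0.00397). For FP the log2 difference from PBS was 0.89 ± 0.20 with an edgeR adjusted p of 0.296, which did not pass. DESeq2, run as an alternative, called that difference (adjusted p = 0.0221), and it called 0.221% of all tested peaks in this comparison. FP minus IL2 at 0.75 h was −0.44 ± 0.20 (edgeR adjusted p = 1), so a difference between the agents was not shown at this time. At 0.75 h the summed CPM of the Treg and T cell marker list was also higher in every IL2 library (428.5 to 445.8) than in PBS (360.8 to 421.7), and its part in the IL2 result was not tested.

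FP libraries were the highest at the Slc39a10 peak at 16 h. Whether the order of the agents changed between times was not tested. The PBS libraries had 20.8, 12.7 and 22.0 CPM, the IL2 libraries 24.8, 26.9 and 15.6, and the FP libraries 52.4, 56.8 and 43.7. IL2 overlapped PBS, while every FP library lay above every library of both other groups. Of all tested peaks, 6.87% had every FP library above PBS at this time. FP raised the peak by 1.46 ± 0.23 (log2, SE; edgeR adjusted p = 0.00491), and the call was lost without FP library c2, with a log2 change of 1.37 and an edgeR adjusted p of 0.0588. The summed CPM of the myeloid marker list was also higher in every FP library at 16 h (23.7 to 34.1) than in PBS (19.5 to 23.4), and its part in this result was not tested. The difference of IL2 from PBS was 0.27 ± 0.23 (edgeR adjusted p = 1).

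The direct comparison of the agents at 16 h called 1 of 1335 member peaks, this one, where 0.141% of all tested peaks were higher in FP. There were 65 member peaks at an unadjusted p under 0.05 (4.87%, against 5.05% of all), and DESeq2 called 8 of the member peaks, where it called 0.488% of all tested peaks. FP exceeded IL2 by 1.19 ± 0.23 (log2, SE; edgeR adjusted p = 0.0287). This call passed under 5 of 12 alternatives. It was lost without FP library c1, c2 or c3 or without IL2 library c1 or c3, with log2 differences from 0.98 to 1.29 and edgeR adjusted p from 0.0583 to 0.221. The doses of the agents differ (5 µg of IL2 and 20 µg of FP), so agent and dose cannot be told apart.

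By 72 h the Slc39a10 intron peak had 23.7, 17.9 and 21.9 CPM in PBS and 23.2, 24.4 and 28.5 in FP. At 168 h it had 19.0, 19.5 and 23.8 CPM in PBS and 30.3, 18.4, 19.8 and 19.3 in FP. The groups overlapped at both times, with log2 differences of 0.26 ± 0.17 and 0.08 ± 0.22 (SE; edgeR adjusted p = 0.930 and 0.969). Over all 12 PBS libraries the peak ranged from 12.7 to 25.2 CPM with a median of 21.4.

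Changes of the effect over time at this peak were tested in one fit of the 31 libraries. The IL2 effect was lower at 16 h than at 0.75 h by a log2 value of −1.05 ± 0.33, at an unadjusted p of 0.0029 by edgeR and an adjusted p of 0.461. The FP effect at 72 h minus that at 16 h was −1.16 ± 0.33, at an unadjusted p of 0.0012 by edgeR and an adjusted p of 1. The FP effect at 16 h minus that at 0.75 h was 0.58 (edgeR adjusted p = 0.9999). None of these differences passed over all peaks. No member passed any of the 4 tests between times by edgeR or DESeq2. In the order IL2 at 16 h minus 0.75 h, then FP at 16 h minus 0.75 h, 72 h minus 16 h and 168 h minus 72 h, edgeR called 0.0411%, 0%, 0.000957% and 0% of all tested peaks and DESeq2 0.262%, 0.00191%, 0.000957% and 0%. At an unadjusted p under 0.05 in these tests there were 84, 58, 38 and 21 of 1368 member peaks, beside 5.26%, 3.52%, 2.98% and 1.46% of all.

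**Figure D1:**
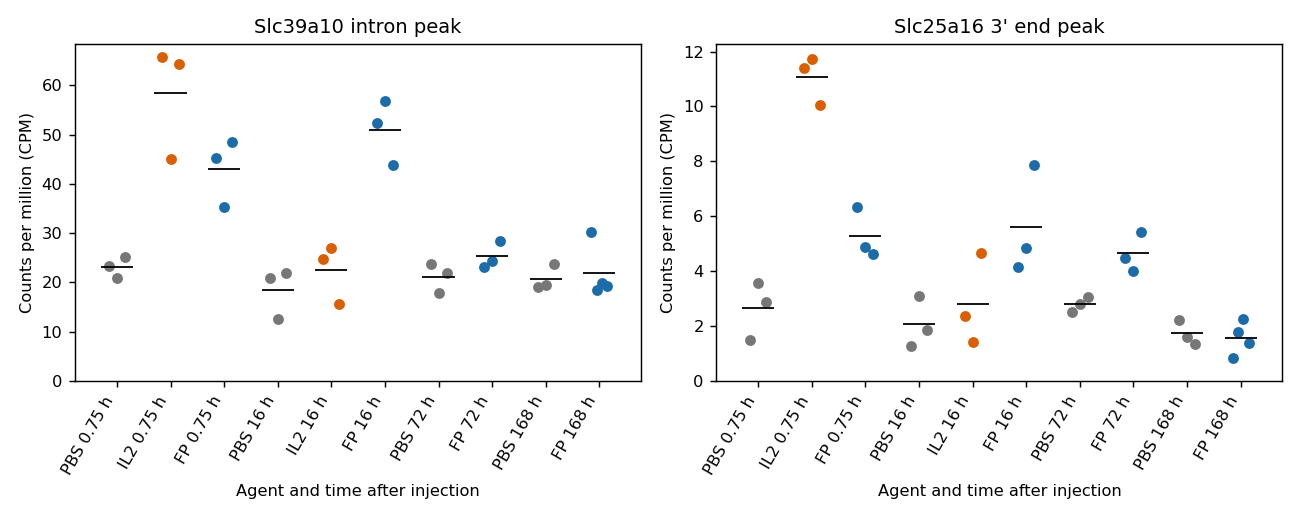
CPM of the Slc39a10 intron peak (left) and the Slc25a16 3′ end peak (right) in each library (points) with the group mean (line), by agent and hours after injection; grey is PBS, orange IL2 and blue FP. At Slc39a10 the IL2 libraries stand above PBS at 0.75 h and overlap it at 16 h, while the FP libraries stand above PBS at both of these times.

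Of the 5 peaks of Slc39a10, 4 were tested against PBS, and the other 3 of these did not pass in any comparison. The remaining peak, labelled 3′ end, was too low for the count filter at every time, with 0.341 CPM on average in PBS and at most 1.04 CPM in any library. The promoter peak, chr1:46852545-46854482, is the most accessible of all member peaks at 86.4 ± 15.5 CPM per kb (SD, 12 PBS libraries). It had 200, 134 and 226 CPM in PBS and 210, 110 and 185 in IL2 at 0.75 h, so the groups overlapped. Its log2 differences from PBS were −0.15 ± 0.23 for IL2 and −0.25 ± 0.23 for FP at 0.75 h, and −0.0014 ± 0.14 for FP at 16 h. The promoter peak holds 2 TTCNNNGAA matches of its own. The other intron peak differed by −0.60 to 0.44 (log2) over the comparisons with PBS, and the remaining promoter-labelled peak, 4081 bp inside the gene, by −0.34 to 0.34.

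**Figure D2:**
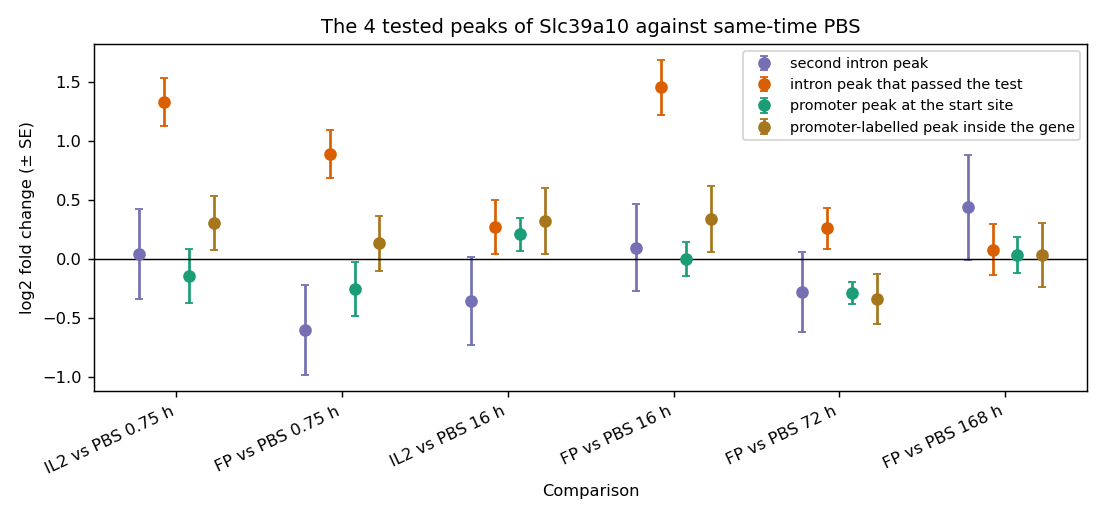
Log2 fold change against same-time PBS (points) with its standard error (bars) for the 4 tested peaks of Slc39a10 in the 6 comparisons with PBS. One intron peak reaches 1.33 for IL2 at 0.75 h and 1.46 for FP at 16 h, while the promoter peak stays between −0.29 and 0.21.

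Slc25a16, whose product is a mitochondrial carrier linked to coenzyme A, held the other peak that passed. The peak, chr10:62945018-62945845, carries the 3′ end label and lies over the last exon of Slc25a16, in its 3′ UTR. The start site of the neighbouring gene Dna2, a DNA helicase and nuclease, is 1181 bp away and nearer than any start of Slc25a16, so the link of this peak to Slc25a16 rests on the deposited annotation.

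In the Slc25a16 peak the PBS libraries at 0.75 h had 1.49, 3.56 and 2.88 CPM, the IL2 libraries 11.4, 11.7 and 10.1, and the FP libraries 6.34, 4.90 and 4.62. All IL2 libraries lay above all FP libraries, which lay above all PBS libraries. Of all tested peaks, 6.37% had every IL2 library above PBS and 4.81% every FP library. IL2 raised the peak by 2.07 ± 0.34 (log2, SE; edgeR adjusted p = 0.00592). FP differed from PBS by 1.01 ± 0.33 and from IL2 by −1.06 ± 0.32, and neither passed (edgeR adjusted p = 1 for both).

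At 16 h the Slc25a16 peak had 1.27, 3.08 and 1.84 CPM in PBS, 2.36, 1.41 and 4.64 in IL2 and 4.15, 4.84 and 7.87 in FP. The FP libraries were above all PBS libraries, as in 6.87% of all tested peaks. The difference of FP from PBS, 1.47 ± 0.46, did not pass (edgeR adjusted p = 0.446). At 72 h FP differed by 0.73 ± 0.27 (edgeR adjusted p = 0.930), with 4.49, 4.02 and 5.43 CPM against 2.52, 2.81 and 3.04. At 168 h the FP libraries, between 0.82 and 2.26 CPM, overlapped those of PBS, between 1.36 and 2.23. The promoter peak of Slc25a16, at 14.5 CPM over the PBS libraries, differed from PBS by −0.43 to 0.24 over the same comparisons.

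Among peaks that did not pass for IL2 at 0.75 h, the 5 genes with the lowest p were Slc30a7, Slc13a1, Slc5a1, Slc25a30 and Slc14a1. Slc30a7 encodes ZnT7, which loads zinc into the Golgi. In its peak the IL2 libraries had 12.8, 13.4 and 14.8 CPM and the PBS libraries 6.77, 5.29 and 4.83, a log2 difference of 1.27 ± 0.30 (edgeR adjusted p = 0.0743). The table lists 10 overlapping peaks at this place in the last exon of Slc30a7, with differences from 1.07 to 1.27, which count largely the same reads and are no independent evidence. The Slc30a7 peak was called by DESeq2 (adjusted p = 0.00704) and in a fit of IL2 and PBS alone (edgeR adjusted p = 0.0451).

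Slc13a1, which encodes a sodium-sulfate cotransporter best known from the kidney, lists an intergenic peak 69467 bp from its start site. It had 6.18, 5.35 and 10.9 CPM in IL2 and 1.61, 2.17 and 3.49 in PBS at 0.75 h, a difference of 1.63 ± 0.39 (log2, SE; edgeR adjusted p = 0.0776). FP at 0.75 h had 5.62, 4.51 and 7.95 CPM there, a difference of 1.32 ± 0.38 (edgeR adjusted p = 0.763). Neither group overlapped PBS, a pattern that 4.81% of all tested peaks showed for FP at this time. The Slc13a1 peak was called for IL2 by DESeq2 (adjusted p = 0.00727).

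Slc5a1, the sodium-glucose cotransporter SGLT1, had an intron peak with 11.1, 9.87 and 9.46 CPM in IL2 and 5.82, 5.15 and 4.00 in PBS, a difference of 1.02 ± 0.27 (edgeR adjusted p = 0.145). The peak of Slc25a30, a mitochondrial carrier, differed by 0.87 ± 0.23 and that at the promoter of the urea transporter Slc14a1 by 0.77 ± 0.22 (edgeR adjusted p = 0.160 and 0.199). In all 5 genes every IL2 library lay above every PBS library. That pattern was also found in 6.37% of all tested peaks, and in 89 of 1317 member peaks (6.76%). DESeq2 called 17 member peaks here, 11 of them at Slc30a7, where it called 1.11% of all tested peaks. Of the 7 peaks named for this comparison, 6 hold TTCNNNGAA, and the Slc14a1 promoter peak does not. The motif stood in 13.8% of all tested peaks and in 85.3% of all peaks that rose here. The 7 were picked by low p and do not stand for the tested members, of which 13.7% held it. By the same rule the counts of named peaks with the motif were 3 of 5 for FP at 0.75 h and 1 of 5 for IL2 at 16 h. For FP they were 4 of 6 at 16 h, 1 of 5 at 72 h and 0 of 5 at 168 h. Over all these comparisons 9 of 26 named peaks held it.

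For FP at 0.75 h none of 1317 member peaks passed by edgeR, where 0.00199% of all tested peaks rose. At an unadjusted p under 0.05 there were 27 member peaks (2.05%, against 3.14% of all tested peaks), and DESeq2 called that of Slc39a10 alone. After Slc39a10, Slc13a1 and Slc25a16, the next lowest p belonged to the Slc25a43 promoter and an intron peak of Slc12a7, a potassium-chloride cotransporter. FP was lower than PBS there by −1.07 ± 0.37 and −0.56 ± 0.20 (log2, SE; edgeR adjusted p = 1 for both).

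For IL2 at 16 h none of 1335 member peaks passed by edgeR, as none of all 100771 tested peaks did (0%). There were 57 member peaks at an unadjusted p under 0.05 (4.27%, against 3.63% of all). Of the 1335, 16 were higher and 41 lower in IL2, beside 1616 (1.6%) and 2038 (2.02%) of all 100771. Among all members 414 peaks overlap another peak and share reads with it, so these are not counts of independent places. DESeq2, which called 0.00198% of all tested peaks, called 1 lower member peak, in an intron of Slc24a3, a potassium-dependent sodium-calcium exchanger. The lowest p belonged to a peak listed at the GABA transporter Slc6a13, with 1.25, 0.93 and 1.17 CPM in IL2 and 2.37, 5.16 and 3.34 in PBS, a difference of −1.69 ± 0.48 (edgeR adjusted p = 1). Promoter peaks of the zinc transporter Slc39a11 and the nucleotide sugar transporter Slc35d1 differed by 0.75 ± 0.26 and 0.65 ± 0.23, and an intron peak of Slc10a7 and an exon peak of the chloride transporter Slc26a9 by 1.07 ± 0.38 and −1.23 ± 0.45 (edgeR adjusted p = 1 for each). With the library total as a covariate the Slc10a7 difference was −0.025, so its direction depends on that choice.

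For FP at 16 h, 56 member peaks had an unadjusted p under 0.05 (4.19%, against 5.31% of all tested peaks). Below Slc39a10, the lowest p belonged to an intron peak at Slc5a3, which encodes a myo-inositol transporter. The peak also lists Mrps6. It had 4.39, 5.90 and 5.13 CPM in FP and 1.34, 2.08 and 1.21 in PBS, a difference of 1.75 ± 0.39 (edgeR adjusted p = 0.0976). An intron peak of Slc13a1, 575 bp from its start site, differed by 1.36 ± 0.34, and the promoter peak of the copper transporter Slc31a2 by 0.83 ± 0.24 (edgeR adjusted p = 0.176 and 0.331). In each of these every FP library lay above every PBS library, as in 6.87% of all tested peaks. DESeq2 called 7 member peaks in this comparison, among them all of these, and 0.485% of all tested peaks.

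Slc4a10, a sodium-driven bicarbonate transporter, stood among the lowest p for FP at both 16 h and 72 h. Its intron peak had 13.4, 6.38 and 6.09 CPM in FP, 3.06, 3.11 and 3.72 in IL2 and 2.89, 3.55 and 3.34 in PBS at 16 h. At 72 h it had 8.28, 5.38 and 5.89 CPM in FP and 3.11, 1.43 and 3.51 in PBS. The FP libraries lay above those of PBS at both times, and those of IL2 at 16 h overlapped PBS. At 16 h 6.87% of all tested peaks had every FP library above PBS. The Slc4a10 peak was picked by low p, so its separation at either time is no added evidence. The differences of FP from PBS, 1.40 ± 0.35 and 1.26 ± 0.36 (log2, SE), did not pass (edgeR adjusted p = 0.179 and 0.930).

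At 72 h none of 1346 member peaks passed by edgeR or DESeq2, where 0% of all tested peaks passed by edgeR and 0.14% by DESeq2. At an unadjusted p under 0.05 there were 47 member peaks (3.49%, against 5.21% of all). With 1 library left out this member count ran from 22 (FP replicate 2) to 177 (PBS replicate 3). The share of all peaks in those fits was not compared. After Slc4a10 the lowest p belonged to introns of Slc25a24, a mitochondrial ATP-magnesium/phosphate carrier, and of the taurine transporter Slc6a6, to an exon peak of the vesicular nucleotide transporter Slc17a9 and to the promoter of Slc35d3. Their differences were 1.20 ± 0.35, 0.63 ± 0.20, 0.95 ± 0.29 and −0.67 ± 0.20 in that order (edgeR adjusted p = 0.930 for each).

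At 168 h none of 1355 member peaks passed by edgeR or DESeq2, where 0% of all tested peaks passed by edgeR and 0.0263% by DESeq2. There were 61 member peaks at an unadjusted p under 0.05 (4.50%, against 4.54% of all). With 1 library left out this member count ran from 22 (PBS replicate 1) to 206 (FP replicate 2), so it depends on single libraries. The share of all peaks in those fits was not compared. The glutamine transporter Slc38a1 had a peak of 15.9, 12.4, 15.4 and 14.9 CPM in FP and 5.20, 7.17 and 9.74 in PBS, a difference of 0.97 ± 0.25 (edgeR adjusted p = 0.899). The Slc35d3 promoter again was lower in FP, at 7.24, 5.39, 8.63 and 7.65 CPM against 14.0, 11.8 and 14.1 in PBS, a difference of −0.87 ± 0.23 (edgeR adjusted p = 0.899). Both peaks were picked by low p, so the separation of FP from PBS at them is no added evidence. Intron peaks of the thiazide-sensitive cotransporter Slc12a3, the amino acid transporter Slc36a4 and the mitochondrial pyrimidine nucleotide carrier Slc25a33 differed by 0.95 ± 0.23, −1.17 ± 0.32 and 1.15 ± 0.38 (edgeR adjusted p = 0.899 for each).

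Across the family the fold changes were spread around 0. The median log2 difference of member peaks for IL2 at 0.75 h was −0.067, beside −0.023 over all tested peaks, and 83 member peaks (6.30%) had an unadjusted p under 0.05, beside 5.74% of all. For FP at 16 h the medians were −0.011 and −0.018. At 72 h they were −0.019 and −0.029, and at 168 h −0.043 and −0.0079. Direct comparison of the agents at 0.75 h called no member by edgeR or DESeq2, where 0% of all tested peaks passed by edgeR and 0.00597% by DESeq2. There were 45 member peaks at an unadjusted p under 0.05 (3.42%, against 3.66% of all).

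**Figure D3:**
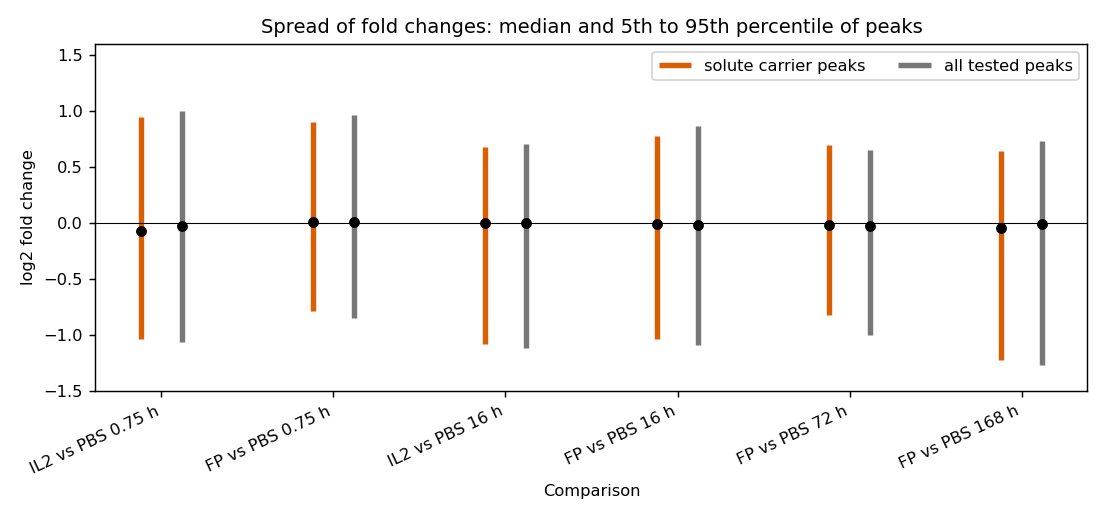
Median (black point) and range from the 5th to the 95th percentile (bar) of log2 fold changes against same-time PBS, for solute carrier peaks (orange) and all tested peaks (grey). The medians of the solute carrier peaks lie between −0.067 and 0.0051, and the bars of both sets span similar ranges.

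The peaks fell into 10 classes, from 32 peaks of monocarboxylate transporters to 266 of inorganic ion transporters. Classes follow the family number in the symbol, so a class name gives the substrate of its members only roughly. The amino acid class gave 161 peaks at 34 symbols, Slc36a3os and Slc7a6os among them. Its median difference was 0.063 for IL2 at 0.75 h and 0.015 for FP at 16 h. Mitochondrial carriers gave 178 peaks at 44 symbols, with medians of −0.093 and −0.13. Metal ion and heme transporters, the class of Slc39a10, gave 151 peaks at 29 genes, with medians of −0.073 and 0.055. Nucleotide sugar transporters had 121 peaks and medians of −0.20 and −0.094. Class medians for these comparisons stayed between −0.20 and 0.20, but the tails differed. For IL2 at 0.75 h, 3.54% of all tested peaks were higher and 2.2% lower at an unadjusted p under 0.05 by edgeR. By class the share higher ran from 0% (nucleotide sugars, 6 of 118 lower, and monocarboxylates, 2 of 31 lower) to 12.5% (nucleosides and vitamins, 0 of 104 lower). Metal ions had 10.8% higher and 0 lower, overlapping Slc30a7 peaks among them. Overlapping peaks share reads and are not independent places.

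The promoters of 30 nutrient transporters of T cells were followed as a list, with exporters such as Slc30a1 and Slc16a3 among them. For each gene the promoter-labelled peak with the most CPM was taken. All 30 were tested and none passed by edgeR in any of the comparisons. For IL2 at 0.75 h the differences ran from −0.70 at Slc12a2, a sodium-potassium-chloride cotransporter, to 0.57 at the glutamine transporter Slc1a5, with none at an unadjusted p under 0.05. For FP at 16 h they ran from −0.49 at the cystine transporter Slc7a11 to 0.62 at Slc43a1, a large neutral amino acid transporter, with 1 at an unadjusted p under 0.05. The Slc7a11 value rests on PBS library c2, without which it was 0.047. The median standard error was 0.25 and 0.23 in these comparisons.

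At the Slc1a5 promoter the libraries at 0.75 h had 5.24, 7.94 and 6.74 CPM in PBS, 10.6, 6.30 and 12.6 in IL2 and 8.21, 5.77 and 5.73 in FP. At Slc43a1 the FP libraries at 16 h had 21.3, 18.1 and 19.9 CPM and those of PBS 11.6, 16.1 and 11.1. The Slc1a5 groups overlapped, and the Slc43a1 groups did not, as 6.87% of all tested peaks had every FP library above PBS. The Slc43a1 difference of 0.62 ± 0.23 did not pass (edgeR adjusted p = 0.651). At 168 h Slc43a1 was on the other side, with 12.1, 12.3, 11.7 and 12.6 CPM in FP and 14.7, 18.4 and 16.6 in PBS, a difference of −0.45 ± 0.18 (edgeR adjusted p = 0.899).

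Other members of the list with an unadjusted p under 0.05 were few. At 72 h they were Slc7a1, which imports arginine and lysine, Slc16a6, a monocarboxylate transporter, and the Slc39a10 promoter, with differences of 0.39 ± 0.16, 0.52 ± 0.22 and −0.29 ± 0.10 (edgeR adjusted p = 0.930 for each). Slc7a1 had 64.6, 65.6 and 61.2 CPM in FP and 52.5, 38.1 and 55.0 in PBS at that time. For Slc19a2, a thiamine transporter, the difference at 168 h was 0.50 ± 0.21, and for the nucleoside transporter Slc29a1 that of FP at 0.75 h was 0.66 ± 0.30 (edgeR adjusted p = 0.899 and 1). Slc7a11 was lower in IL2 at 16 h by −1.03 ± 0.39, with an edgeR adjusted p of 1. Its PBS libraries there spread widely, at 3.76, 14.1 and 8.14 CPM.

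The promoters differed more among themselves than between groups. Over the 12 PBS libraries they ranged from 6.26 ± 2.53 CPM per kb at the lactate exporter Slc16a3 to 86.4 ± 15.5 at Slc39a10 (SD). Slc1a4, a neutral amino acid transporter, followed with 46.6 ± 8.01, then the zinc exporter Slc30a1 with 33.4 ± 8.69. The zinc importer Slc39a6 had 32.4 ± 7.55, the folate transporter Slc19a1 32.4 ± 6.01 and the copper importer Slc31a1 32.3 ± 7.46, which lie within the spread of Slc30a1. The lowest PBS library of Slc39a10, at 63.1 CPM per kb, lay above the highest of Slc1a4, at 60.3. Slc7a1 had 23.1 ± 4.48, Slc1a5 17.3 ± 6.81, the lactate transporter Slc16a1 13.5 ± 3.40 and the glutamine transporter Slc38a2 12.7 ± 3.81.

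**Figure D4:**
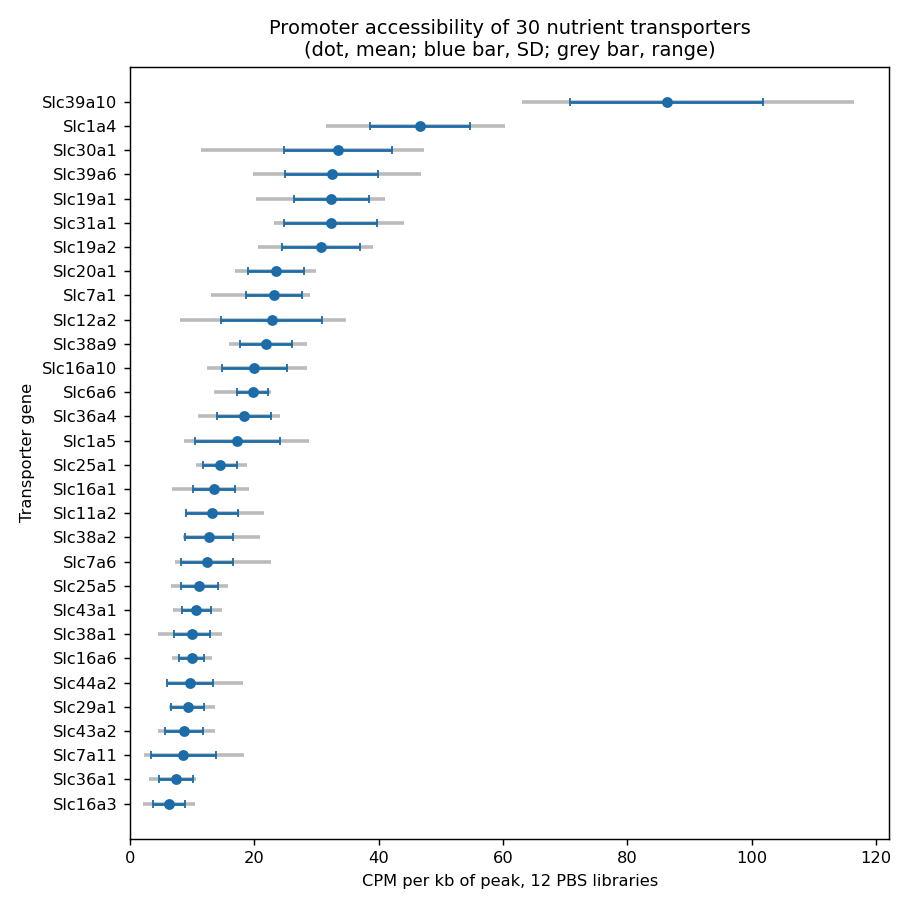
Accessibility of the promoter peak of 30 nutrient transporters in CPM per kb over the 12 PBS libraries, as mean (point), SD (blue bar) and range (grey bar). Slc39a10 at 86.4 stands above the range of every other gene, and most others overlap their neighbours.

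Among all members the most accessible after Slc39a10 were the promoters of Slc25a28, a mitochondrial iron importer, at 73.3 ± 10.9 CPM per kb (SD, 12 PBS libraries), and of Slc25a40, a mitochondrial glutathione carrier, at 71.8 ± 20.1. The promoter-labelled peak listed at the pseudogene Slc25a5-ps had 63.9 ± 14.5 and that of Slc25a42, a mitochondrial coenzyme A carrier, 62.3 ± 17.5. The peaks of Slc25a40 and Slc25a5-ps also list Dbf4 and Fhit, so their level cannot be given to 1 gene. Slc35b4, the sulfate transporter Slc26a2 and Slc35a5 had 51.2, 49.4 and 46.8 CPM per kb. Over all members the median was 7.23, beside 7.11 for all peaks.

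Peaks were spread unevenly over the genes, with a median of 2 per symbol, 97 symbols with 1 and 41 with 10 or more. Slc9a9, an endosomal sodium-proton exchanger, had 33, Slc39a11 had 31, Slc24a3 had 30, and Slc25a24 and Slc7a1 had 24 each. By label 379 peaks were promoter, 478 intron, 281 intergenic, 154 3′ end and 82 exon. Of the promoter-labelled peaks 341 (90.0%) lay within 1 kb of a start site of their own gene in GENCODE M21, beside 31 (3.12%) of the other members. Members labelled promoter varied less between libraries of a group, with a median coefficient of variation from 25.1% to 30.7% over the time points, than all members, with 32.6% to 38.0%.

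TTCNNNGAA stood in 184 member peaks (13.4%), beside 13.3% of all peaks. Over all tested peaks it stood in 418 of the 490 that rose for IL2 at 0.75 h (85.3%) and in 108 of the 115 that rose for FP at 16 h (93.9%), and these risen peaks were wider, with a median of 677 and 782 bp against 379 and 378 bp over all tested peaks. Tested member peaks with the motif had a median difference of 0.11 for IL2 at 0.75 h, and those without it −0.090. For all tested peaks these values were 0.14 and −0.047. For FP at 16 h the members with and without the motif had medians of 0.10 and −0.030, and all tested peaks 0.11 and −0.040. For IL2 at 16 h and FP at 168 h the members with the motif had medians of 0.090 and −0.079. Of the 30 promoters on the nutrient list 7 held the motif, that of Slc39a10 among them.

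**Figure D5:**
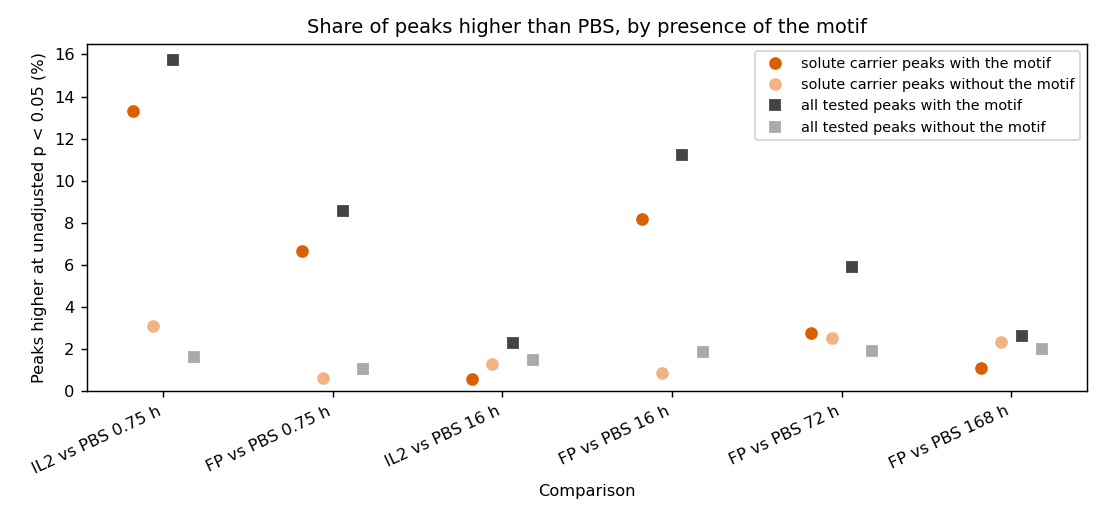
Percent of tested peaks that were higher than same-time PBS at an unadjusted p under 0.05, for solute carrier peaks (orange shades) and all tested peaks (grey shades), with the motif (dark) and without it (light). In both sets the peaks with the motif stand higher for IL2 at 0.75 h and for FP at 0.75 h and 16 h.

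Genes of mTOR, HIF1 and nutrient sensing, a list of 30 that includes the 4 transporters left out of the members, held 136 peaks. None rose in any comparison, and 1 fell by edgeR, an intron peak of Hif1a for IL2 at 0.75 h, with a log2 change of −2.60 ± 0.56 (adjusted p = 0.0411). Over all tested peaks 0.00896% fell in that comparison. At an unadjusted p under 0.05 there were 5 of its 129 tested peaks for IL2 at 0.75 h (3.88%, against 5.74% of all) and 7 of 132 for FP at 16 h (5.30%, against 5.31% of all). Hif1a encodes a factor that drives glycolytic genes when oxygen is low.

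Library totals ran from 7385040 to 59647438 counts in peaks, and member peaks held 0.614% to 0.876% of each. PBS replicate 1 and FP replicate 2 at 168 h stood apart, with mean correlations to the other libraries of 0.803 and 0.837, and 0.867 or more in all others. They were the shallowest 2 libraries, with 7385040 and 12316912 counts. No member passed at 168 h with or without either. All 8 Treg and T cell marker genes had peaks, with 272 to 595 summed CPM per library. Of other cells, the B cell genes Cd79b and Ms4a1, the NK cell gene Ncr1, the myeloid genes Csf1r and Cd68 and the erythroid genes Alas2, Hbb-bs and Hba-a2 had no peak. The summed CPM of the B cell list was 5.07 to 19.1, of the myeloid list 11.2 to 34.1, of the CD8 T cell list 50.9 to 130, of the erythroid list 99.0 to 199.5 and of the NK cell list 80.0 to 164. At 16 h the NK list had 122 to 152 in FP and 91.5 to 127 in PBS, which overlap. At 0.75 h the erythroid list was higher in every FP library (133 to 190 CPM) than in PBS (106 to 130 CPM). The part of these lists in the FP results was not tested.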

How the data were processed

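The authors' deposited table gives a whole-number read count for 104979 peaks in 31 libraries. The submitters' processing notes name BWA, MACS2 2.1.2, GRCm38 and mm10. According to the design text of the series, the mapper was bwa-mem, peaks were kept by irreproducible discovery rate between pseudo-replicates, and the authors tested with DESeq2. How reads were counted, duplicates handled and peaks merged is not given in the sources used here. One column, the first per-sample one, recorded as an other unit because commas in the gene names of 9561 peaks shift the deposited fields, holds counts too, and fields were taken from the right. At 16 h columns could be matched to groups only, and libraries are called c1 to c3. Unmapped per-sample columns numbered 0.

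Each time point was fitted with all its groups in edgeR 4.0.16 under R 4.3.3 (TMM, filterByExpr with minimum count 10 and minimum total 15, quasi-likelihood F test, Benjamini-Hochberg adjustment over all tested peaks, threshold 0.05). SE is the log2 fold change over the square root of F. Differences between times came from 1 fit of all libraries. Of 1374 members 8 were tested in no comparison and 1292 in every comparison with PBS. Alternatives were library totals alone, RLE factors, no filter, DESeq2 1.42.0, the library total as a covariate, other groups in the fit, a replicate block and each library left out. The fits were tested on simulated data. Tables, sequences and figures used Python 3.11.15, pandas 2.3.3, numpy 2.4.6, pysam 0.24.0 and matplotlib 3.10.9. Named peaks were those that passed, else the 5 genes with the lowest p at a mean log2 CPM of at least 1, the nutrient promoters, the 10 most accessible members and the 5 genes with most peaks, of which 1 is not reported here. Motif windows, promoters and lists were chosen, like the members, with earlier results of these data known.

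Counts carry counting error and overlapping peaks share reads. Depth varied from 7385040 to 59647438 counts per library. Variation between libraries of a group beyond counting error, by edgeR's common dispersion, came to 43.3% at 0.75 h and 41.0% at 16 h. It was 38.6% at 72 h and 48.0% at 168 h, and may be partly technical.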

Additional observations from a re-analysis of the deposited data

Results flagged for a closer look

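In 9 of 64 named peaks, 1 of the 4 FP libraries at 168 h lay far from the other 3 by Dixon's test at the 95% level, which chance alone does in about 5% of groups. FP replicate 2 was the highest for the promoters of Slc7a11 (21.8 CPM), Slc12a2 (76.9 CPM) and Slc19a1 (59.5 CPM) and for an intron peak of Slc13a1 (9.02 CPM), and the lowest for the promoter of Slc35a5 (45.1 CPM). That library had 12316912 counts and a mean correlation of 0.837 with the other libraries. FP replicate 1 was the highest for the Slc39a10 intron peak (30.3 CPM) and the lowest for an intron peak of Slc36a4 (1.92 CPM). FP replicate 4 was the highest for the Slc16a3 promoter (6.32 CPM), and FP replicate 3 the lowest for the Slc30a1 promoter (34.4 CPM). None of these peaks passed at 168 h.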

How the results depend on the processing

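For IL2 at 0.75 h the 2 members that passed, those of Slc39a10 and Slc25a16, passed under all 13 alternatives (highest edgeR adjusted p 0.0347 and 0.0400), and the count was 2 with each library left out, where 0.184% to 0.38% of all tested peaks passed. It was 17 by DESeq2 (in 8 regions, 11 of the peaks at Slc30a7), 15 with the replicate block (in 7 regions) and 6 with only PBS and IL2 fitted (in 3 regions), where 1.11%, 0.978% and 0.45% of all tested peaks passed. For FP at 0.75 h the count was 1 by DESeq2 and 1 with the replicate block (edgeR adjusted p = 0.0102), both times Slc39a10, beside 0.221% and 0.128% of all. For FP at 16 h it was 7 by DESeq2 (0.485% of all) and 0 to 1 with a library left out (0.0362% to 0.0648%). For FP minus IL2 at 16 h it was 8 by DESeq2 (0.488% of all), 2 with no filter (0.138%), 0 with the library total as a covariate (0.0308%), 0 with library totals alone (0.0615%) and 0 to 1 with a library left out (0.0373% to 0.0717%). DESeq2 called 1 member for IL2 at 16 h (0.00198% of all), and the covariate gave 1 for FP at 72 h (0.126%), in Slc10a7. The cause was not tested.

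Replicate numbers were not taken to pair the libraries, since not every same-numbered pair had a correlation of deviations over 0.1. At 0.75 h all 9 such pairs were above 0 (0.0042 to 0.30) and 6 were over 0.1, while 6 of 18 pairs with different numbers were above 0 (−0.28 to 0.067). A library correlated best with its own number in 15 of 18 cases there, a hint from the data and not from the design. At 72 h and 168 h the 3 pairs ran from −0.24 to 0.60 and from −0.25 to 0.45. The block result is therefore given here only. No paired analysis was made at 16 h, because the column numbers there do not match those of the sample titles. Some log2 differences that had not passed changed sign. With the covariate, Slc10a7 went from 1.07 to −0.025 and Slc25a16 from 0.47 to −0.0055 (IL2, 16 h), and Slc7a11 went from −0.77 to 0.47, Slc39a10 from 0.078 to −0.054 and Slc25a16 from −0.13 to 0.090 (FP, 168 h). With 1 library left out values ran from −0.85 to 0.047 for Slc7a11 (FP, 16 h; −0.49 with all, above 0 without PBS c2), from −0.11 to 0.87 for Slc25a16 (IL2, 16 h; below 0 without IL2 c3), from −0.12 to 0.19 for Slc39a10 (FP, 168 h; below 0 without FP replicate 1) and from −0.39 to 0.077 for Slc25a16 (FP, 168 h; above 0 without FP replicate 1 or PBS replicate 1, the latter 0.071). The share of members with TTCCNGGAA was 1.67%, beside 1.87% of all peaks. All medians moved by less than the spread between replicates.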
